A study of Mus musculus with 10 samples.

Results

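Voltage-gated calcium and sodium channels were read out across sorted cells of the mouse small intestinal epithelium. Their genes were taken by name and annotation alone, as the protein-coding entries of the deposited gene table whose symbols begin with Cacn, or with Scn followed by a digit, which leaves out the epithelial sodium channel genes. The rule found 40 of 54532 genes, 26 for calcium and 14 for sodium channels, and in each family the pore-forming subunits were kept apart from the auxiliary ones (10 calcium and 10 sodium pores, 16 calcium and 4 sodium auxiliary genes). Of the 40 genes, 27 passed a filter of more than 0.5 counts per 1000000 counts (cpm) in at least 3 libraries and were tested.

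The cells came from 5 litter-matched mice of the outbred CD1/ICR stock, 10 weeks old, that carried a Gucy2c-GFP reporter, in which the promoter of Gucy2c, the gene of the intestinal receptor guanylyl cyclase C, drives green fluorescent protein. Epithelium was dissociated and sorted on fluorescence into GUCY2Chi and GUCY2Cmed cells, 20000 cells for each library, and the labels call the second group both Medium and Lo. Each group has 5 libraries, numbered 2, 7, 12, 14 and 15, and these numbers were taken as those of the mice. All mice of both groups carried the reporter, no treatment was given, and the sort used the same promoter whose gene names the groups.

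A voltage-gated channel opens when the membrane depolarizes. In calcium channels a large α1 subunit forms the pore, and the current types L, P/Q, N, R and T follow from which α1 gene is used, while β and α2δ subunits bring the pore to the membrane and set its gating. Sodium channels have 1 pore-forming α subunit, which carries the upstroke of the action potential, and small β subunits with an immunoglobulin fold. In enteroendocrine cells, the hormone-secreting cells of the gut lining, such channels let electrical activity admit the calcium that triggers release.

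Counts on genes ran from 10903958 to 15307932 per library. Levels are given as cpm normalized by the trimmed mean of M values (TMM). Groups were compared with edgeR's quasi-likelihood test, with Benjamini-Hochberg adjustment over 15703 genes and a threshold of 0.01. This main fit has no term for the mouse, and the fit with the number as replicate block is given as an alternative. The labels of the groups were checked with summed marker levels: 16 enteroendocrine markers reached 41156 to 163848 cpm in GUCY2Chi and 150.5 to 353 in GUCY2Cmed libraries, and 12 enterocyte markers 3216 to 29819 and 52830 to 71303. GUCY2Chi libraries 12 and 15 held the most enterocyte RNA of their group, 29655 and 29819 cpm. A list of 15 forebrain neuron markers did not follow the groups, with none past the threshold, and its sum ran from 16.4 cpm in GUCY2Cmed library 7 to 1466 in GUCY2Chi library 15. It was 45.8 and 49.3 in GUCY2Chi libraries 2 and 14, 458 and 508 in libraries 12 and 7, and 295.5 to 797 in the other GUCY2Cmed libraries. Among these markers Nrgn, a neuronal calmodulin-binding protein, reached 20.04 to 933 cpm in GUCY2Chi and 8.91 to 521 in GUCY2Cmed libraries. Camk2a, a kinase of excitatory synapses, reached 2.02 to 81.8 and 1.04 to 43.8, and Slc17a7, a vesicular glutamate transporter, 1.23 to 77.0 and 0.321 to 44.7. Channel genes are therefore given beside this sum where they move with it. The marker lists, like the rule for channel genes, were chosen with earlier results of these data known.

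Of the 27 channel genes 7, or 25.9%, were higher in GUCY2Chi cells at the threshold, and across all genes tested 13.9% were higher and 8.79% lower. None of the 27 was lower with edgeR, limma-voom or DESeq2, and none of those with a negative fold change had an unadjusted p under 0.05 by any of the 3, although 11.4% and 14.2% of all genes were lower with limma-voom and DESeq2. The 7 were the sodium pores Scn3a and Scn9a, the calcium pores Cacna1a, Cacna1h and Cacna1d, and the calcium auxiliary subunits Cacnb3 and Cacna2d1. By class they made up 5 of 13 pore genes and 2 of 14 auxiliary genes. For 10 of the 27, or 37.0%, every GUCY2Chi library lay above every GUCY2Cmed library, which held for 16.7% of all genes tested. The additional 3, Scn3b, Cacnb2 and Cacna2d2, are all auxiliary. By this count the classes were alike, with 5 of 13 pore genes and 5 of 14 auxiliary genes. Of the 27, 4 (Scn9a, Cacna1h, Cacna2d2 and Cacna2d4) passed the filter only through GUCY2Chi libraries, so that a higher level there was part of their entry. These counts are therefore descriptions of the genes tested. The 4 make up 2 of the 7, 3 of the 10 and 4 of the 25 with a log2 fold change above 0. The log2 fold change was above 0 for 25 of 27 channel genes, against 54.6% of all genes, with a median of 1.30 against 0.09. Several of the 25 were near 0 with large standard errors, such as Cacng3 (0.04, SE 1.06), Cacna1e (0.14, SE 1.11), Scn1a (0.15, SE 1.04) and Scn2b (0.17, SE 0.84). For each of these the GUCY2Chi library was the higher in 2 of the 5 numbers, and with limma-voom the sign was negative. The median was also 1.30 with the genes at or under 3 counts in each GUCY2Cmed library set to their value against 3 counts. Those genes, Scn9a and Cacna2d2, stayed above the median at those values, so this could not move it. With the log2 forebrain marker sum as a covariate 10 channel genes were past the threshold, beside 16.7% of all genes. Without the 5 libraries in which that sum was over 500 cpm, which left 3 GUCY2Chi and 2 GUCY2Cmed libraries, 3 of 20 were (Cacna1a, Cacnb3 and Scn3a), beside 3.23% of all genes. With the number as replicate block 5 were, beside 8.24% of all genes, and Cacna1d and Cacna2d1 no longer passed. At an adjusted p under 0.05 without the block 11 were, beside 21.4%. In these bulk libraries more cells of a type and more RNA per cell cannot be told apart.

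**Figure D1:**
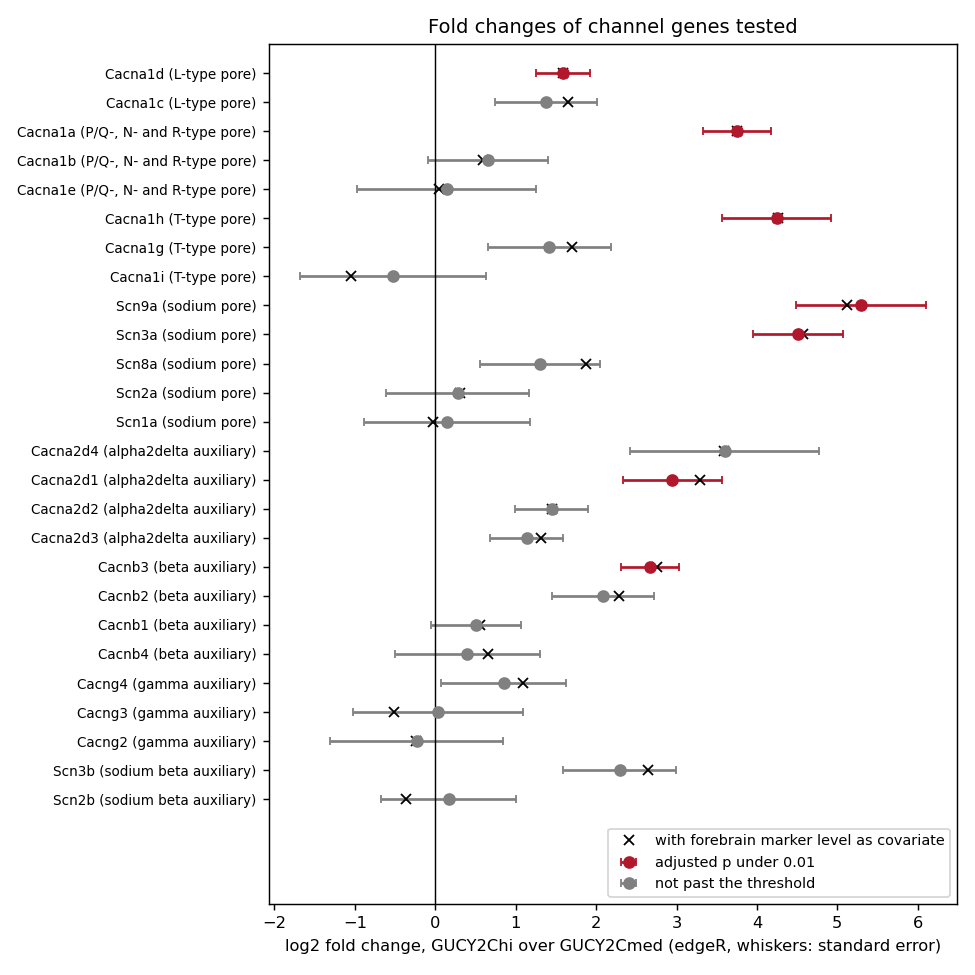
Log2 fold change of GUCY2Chi over GUCY2Cmed cells (horizontal axis) for 26 of the 27 channel genes tested, grouped by subunit class, with whiskers for the standard error and crosses for the fit with the forebrain marker sum as covariate. The 7 genes past the threshold (red) lay between 1.58 and 5.29, and their crosses stayed close to the points.

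Promoter sequences are shown for 4 genes, to set a pair of sodium channel genes of 1 cluster, of which Scn9a was past the threshold and Scn2a was not, beside the most abundant β and α2δ calcium subunits. They are RefSeq windows of build GRCm38.p6, from 250 bases before to 50 after a transcription start, read on the gene's strand. Capitals mark each GC box (GGGCGG on either strand), the motif bound by Sp-family factors. Scn9a is at chr2:66634913-66635212 (minus strand), the first of the Scn2a starts at chr2:65620519-65620818 (plus), the second Cacnb3 start at chr15:98634517-98634816 (plus) and Cacna2d1 at chr5:15934441-15934740 (plus).
Scn9a: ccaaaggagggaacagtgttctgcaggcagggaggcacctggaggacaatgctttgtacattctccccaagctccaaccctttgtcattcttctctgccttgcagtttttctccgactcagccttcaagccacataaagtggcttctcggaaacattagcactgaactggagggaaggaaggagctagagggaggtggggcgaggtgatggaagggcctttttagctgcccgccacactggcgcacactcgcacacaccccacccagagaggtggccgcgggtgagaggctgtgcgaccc
Scn2a: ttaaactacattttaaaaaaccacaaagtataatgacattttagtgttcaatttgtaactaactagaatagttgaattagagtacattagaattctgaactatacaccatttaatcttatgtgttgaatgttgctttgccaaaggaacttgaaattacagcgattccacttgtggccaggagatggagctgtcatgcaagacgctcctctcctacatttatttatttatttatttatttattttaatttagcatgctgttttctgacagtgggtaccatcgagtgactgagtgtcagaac
Cacnb3: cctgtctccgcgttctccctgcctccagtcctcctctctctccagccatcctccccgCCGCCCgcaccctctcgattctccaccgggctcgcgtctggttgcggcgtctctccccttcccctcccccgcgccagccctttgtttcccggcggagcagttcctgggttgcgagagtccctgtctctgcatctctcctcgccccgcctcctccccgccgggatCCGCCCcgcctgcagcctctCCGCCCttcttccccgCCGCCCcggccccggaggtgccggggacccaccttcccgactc
Cacna2d1: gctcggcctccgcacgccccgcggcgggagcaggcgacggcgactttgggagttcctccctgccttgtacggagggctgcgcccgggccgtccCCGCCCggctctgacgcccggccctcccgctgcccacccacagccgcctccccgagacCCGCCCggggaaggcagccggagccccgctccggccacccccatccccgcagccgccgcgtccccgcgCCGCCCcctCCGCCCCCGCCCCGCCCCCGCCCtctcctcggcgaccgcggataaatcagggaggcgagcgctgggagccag

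The windows printed for Scn9a and Scn2a held no GC box, with 57.3% and 33.0% G and C and 9 and 3 CpG dinucleotides. The second Scn2a start, not printed, held no GC box, 47.7% G and C, 9 CpG and 1 TATAAA. The Cacnb3 and Cacna2d1 windows printed held 4 and 7 GC boxes, with 72.0% and 80.0% G and C and 29 and 42 CpG. The first Cacnb3 start, not printed, held 1 GC box, 59.7% G and C and 7 CpG. Over all 32851 windows the medians were 52.7% and 7 CpG, and 35.7% of windows held a GC box. Of 41 windows found for 30 channel genes, 16 held a GC box, as did 4 of the 6 windows found for the genes past the threshold. Those 6 came from 4 of the 7 genes, as no window was found for Scn3a, Cacna1a or Cacna1h. The E-box CAGATG was in 17.2% of all windows and in 7 of the 41, among them the first Cacnb3 start. TATAAA was in 13.6% and in 2 of the 41. Of 2 short forms of the site of REST, a repressor of neuronal genes, TTCAGCACC was in 0.371% of all windows and in none of the 41, and GGACAGC in 6.56% and in 2 of the 41, those of Cacnb1 and Cacng6. Each motif was sought on both strands.

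Among the sodium pores, Scn3a encodes NaV1.3, a channel of developing neurons and endocrine cells. Its level was 38.7, 64.9, 36.6, 72.0 and 17.8 cpm in GUCY2Chi libraries 2, 7, 12, 14 and 15, and 4.31, 0.401, 1.73, 2.25 and 1.45 cpm in GUCY2Cmed libraries of the same numbers. The lowest GUCY2Chi library was thus 17.8 and the highest GUCY2Cmed library 4.31, without overlap. The means were 46.0 ± 22.2 and 2.03 ± 1.44 (SD, n = 5), a log2 fold change of 4.51 (SE 0.56) with an edgeR adjusted p of 1.71e-04. It was past the threshold in all 25 alternatives run, with 4.24 as the smallest log2 fold change. Within each number, and for each of the 7 genes, the GUCY2Chi library was the higher one.

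Scn9a encodes NaV1.7, best known from pain-sensing neurons. It gave 6.46, 3.74, 1.67, 6.01 and 2.33 cpm in GUCY2Chi libraries, and 0, 0, 0.216, 0.225 and 0 in GUCY2Cmed libraries. All GUCY2Cmed libraries held 3 counts or fewer, so the difference is given as a bound: against 3 counts per library, Scn9a was at least 16.6-fold higher in GUCY2Chi cells. The edgeR adjusted p was 6.56e-04. It was not past the threshold without the 5 libraries over 500 cpm of forebrain markers, with an edgeR adjusted p of 0.0189.

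The other sodium pores tested did not pass. Scn2a (NaV1.2), a main sodium channel of central neurons, gave 1.55, 12.4, 13.9, 2.39 and 37.7 cpm in GUCY2Chi and 11.3, 0.401, 20.5, 16.2 and 7.53 in GUCY2Cmed libraries, so the groups overlapped over most of their range. Its log2 fold change was 0.28 (edgeR adjusted p = 0.851). Scn2a followed the forebrain markers, at 1.84 to 4.85% of their sum in all 10 libraries, a 2.63-fold span, while the same share spanned 674-fold for Scn3a. Scn1a (NaV1.1) had a log2 fold change of 0.15, and the GUCY2Chi library was the higher in 2 of the 5 numbers, as for Scn2a. Scn8a (NaV1.6), a channel of axon initial segments, gave 16.1, 18.2, 18.02, 9.64 and 28.8 cpm against 9.17, 0, 13.04, 10.2 and 4.45. Its groups overlapped, and its log2 fold change of 1.30 had an edgeR adjusted p of 0.195.

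The genes Scn3a, Scn2a, Scn1a, Scn9a and Scn7a lie in this order on chromosome 2, between 65457118 and 66784914 (GRCm38). A gap of 503330 bp separates Scn2a from Scn1a. Scn3a and Scn2a are 53143 bp apart and Scn1a and Scn9a 39239 bp apart. In each of these neighbouring pairs, then, 1 gene was past the threshold and 1 was not, with log2 fold changes of 4.51 and 0.28 and of 5.29 and 0.15, where 5.29 is a fitted value that depends on the prior count. The differences between neighbours were not tested. The deposited table holds 23 counts of Scn7a in all libraries, 3, 9, 1, 6 and 2 in GUCY2Chi and 0, 0, 1, 1 and 0 in GUCY2Cmed libraries.

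**Figure D2:**
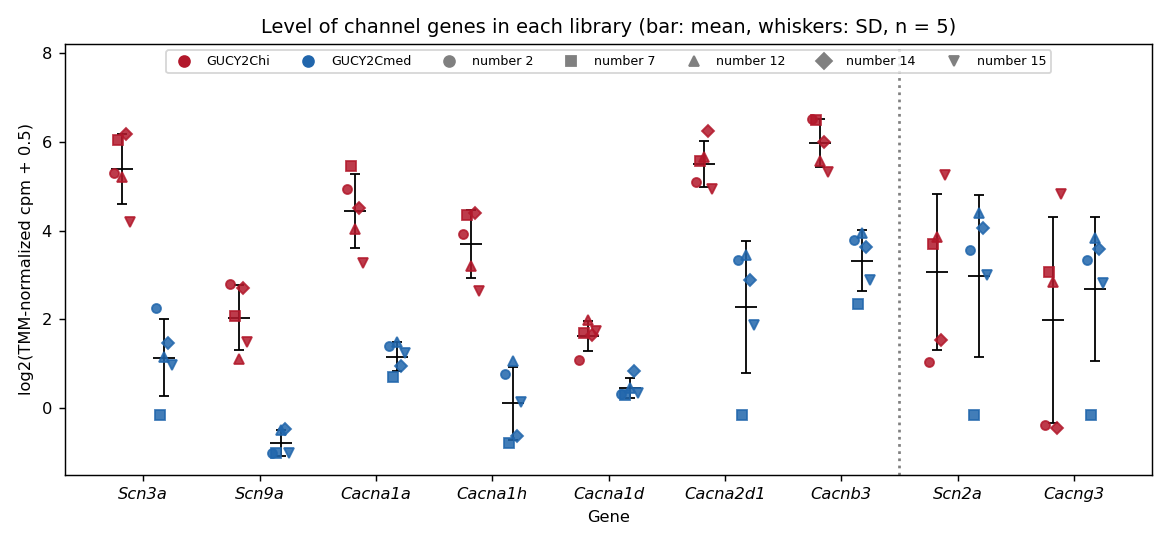
Level of 9 channel genes in each library as log2(TMM cpm + 0.5) (vertical axis), GUCY2Chi in red and GUCY2Cmed in blue, with a marker shape for each number and bars for mean and SD (n = 5). The groups did not overlap for the 7 genes left of the dotted line and overlapped for Scn2a and Cacng3.

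Sodium β subunits bind the pore, alter its gating and act in cell adhesion. Scn3b gave 12.6, 14.7, 7.80, 10.6 and 8.63 cpm in GUCY2Chi and 3.56, 0, 3.39, 3.23 and 0.856 in GUCY2Cmed libraries. These did not overlap (exact two-sided permutation p = 0.00794, the smallest that 5 against 5 unpaired libraries allows). That test left out the pairing by number. For Scn3b the edgeR adjusted p was 0.0231 at a log2 fold change of 2.29 (SE 0.70). It passed in 6 alternatives, among them DESeq2 (0.00262), the forebrain covariate without (0.00689) and with the replicate block (0.00670), and the fit without GUCY2Cmed library 7 (0.00417). Scn2b had a log2 fold change of 0.17.

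Among the calcium pores, Cacna1a encodes the P/Q-type α1 subunit of presynaptic terminals. It gave 29.9, 43.1, 16.0, 22.3 and 9.13 cpm in GUCY2Chi libraries and 2.15, 1.12, 2.30, 1.43 and 1.88 in GUCY2Cmed libraries, without overlap. The means were 24.1 ± 13.1 and 1.78 ± 0.495 (SD, n = 5), and the log2 fold change was 3.75 (SE 0.42, edgeR adjusted p = 7.83e-05). It held in all 25 alternatives. The other α1 genes of the same group encode the N type (Cacna1b, log2 fold change 0.66) and the R type (Cacna1e, 0.14) and did not pass. Cacna1e gave 0.202, 6.39, 4.62, 0.154 and 13.5 cpm in GUCY2Chi and 4.96, 0, 9.94, 4.66 and 3.00 in GUCY2Cmed libraries, so its 3 lowest values fell in the 3 libraries whose forebrain sum was under 100 cpm.

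Cacna1h encodes a T-type channel, which opens at small depolarizations. Its level was 14.7, 20.02, 8.63, 20.4 and 5.73 cpm in GUCY2Chi and 1.22, 0.0803, 1.58, 0.150 and 0.599 in GUCY2Cmed libraries, again without overlap. The log2 fold change was 4.24 (SE 0.68, edgeR adjusted p = 8.37e-04), and without the 5 libraries over 500 cpm of forebrain markers the adjusted p was 0.0118. On the opposite strand Tpsg1, a mast cell protease gene, overlaps it, by 158 exonic bases in the NCBIM37 annotation. Whether counting used strand is not given in the sources used here, so their reads may not be separate. Tpsg1 itself ran from 2.16 to 44.7 cpm in GUCY2Chi and from 11.2 to 21.3 in GUCY2Cmed libraries. The other T-type genes did not pass, with log2 fold changes of 1.42 (Cacna1g) and -0.53 (Cacna1i).

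The L-type pore Cacna1d, a pacemaking channel of endocrine cells, gave 1.61, 2.71, 3.48, 2.62 and 2.83 cpm in GUCY2Chi and 0.749, 0.723, 0.864, 1.28 and 0.770 in GUCY2Cmed libraries. The gap between the groups, 1.28 to 1.61, was narrow. Its log2 fold change was 1.58 (SE 0.34, edgeR adjusted p = 0.00392), and it passed in 19 of 25 alternatives. With the number as replicate block the edgeR adjusted p was 0.0175, and without GUCY2Cmed library 15 it was 0.0119. Chdh, a choline dehydrogenase gene on the other strand, shares 518 exonic bases with it and was 4.78 to 17.8 cpm in GUCY2Chi and 30.6 to 89.8 in GUCY2Cmed libraries, so its order was the opposite. Cacna1c, the L-type gene of heart and smooth muscle, was higher in the GUCY2Chi library of each number, with a log2 fold change of 1.38 and an edgeR adjusted p of 0.109, or 0.00577 with the forebrain covariate and 0.0125 with the replicate block beside it.

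The calcium β subunits lie inside the cell and carry the pore to the membrane. Cacnb3 was the most abundant of them, at 90.5, 89.1, 46.7, 63.4 and 39.5 cpm in GUCY2Chi and 13.4, 4.58, 14.98, 11.8 and 6.85 in GUCY2Cmed libraries. Each GUCY2Chi library was above every GUCY2Cmed library, with means of 65.9 ± 23.5 and 10.3 ± 4.43 (SD, n = 5) and a log2 fold change of 2.67 (SE 0.36, edgeR adjusted p = 2.84e-04). It held in all 25 alternatives. Cacnb2 gave 4.37, 5.06, 2.73, 5.47 and 3.84 cpm against 1.59, 0, 1.30, 1.28 and 0.856, without overlap. Its log2 fold change was 2.09 (SE 0.63) with an edgeR adjusted p of 0.0220, and without GUCY2Cmed library 7 the adjusted p was 0.00290. Cacnb1 and Cacnb4 had log2 fold changes of 0.51 and 0.40 and did not pass.

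The α2δ subunits sit on the outer face of the membrane, and Cacna2d1 and Cacna2d2 encode the binding sites of the gabapentinoid drugs. Cacna2d1 gave 33.4, 46.8, 50.2, 75.1 and 30.2 cpm in GUCY2Chi and 9.55, 0.401, 10.4, 6.91 and 3.17 in GUCY2Cmed libraries. The groups were apart, and the log2 fold change was 2.95 (SE 0.61, edgeR adjusted p = 0.00347). With the replicate block the edgeR adjusted p was 0.0107, and without GUCY2Cmed library 15 it was 0.0125. Among GUCY2Cmed libraries Cacna2d1 stayed at 1.07 to 2.45% of the forebrain sum. Cacna2d2 ranged from 0.385 to 0.941 cpm in GUCY2Chi and from 0.171 to 0.281 in GUCY2Cmed libraries. The latter held 3, 3, 3, 3 and 2 counts, so its 2.59-fold value against 3 counts per library is no firm lower bound. Its log2 fold change of 1.45 (SE 0.45) did not pass, with an edgeR adjusted p of 0.0250. Cacna2d4 and Cacna2d3 did not pass (adjusted p = 0.0306 and 0.0673).

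The γ genes are a mixed family, since Cacng1 encodes a subunit of the muscle calcium channel while Cacng2 to Cacng4 and others serve glutamate receptors of the AMPA type. Of 8, 3 were tested and none passed. Cacng3 gave 0.269, 7.84, 6.66, 0.231 and 27.9 cpm in GUCY2Chi and 9.64, 0.401, 13.7, 11.5 and 6.59 in GUCY2Cmed libraries. Its 3 lowest values were those of the 3 libraries with a forebrain sum under 100 cpm, and it was 0.469 to 2.45% of that sum throughout. The log2 fold change was 0.04 for Cacng3, 0.85 for Cacng4 and -0.23 for Cacng2, and the last turned to 0.10 where library size alone set the scale, which moved the median of all genes up by 0.29.

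**Figure D3:**
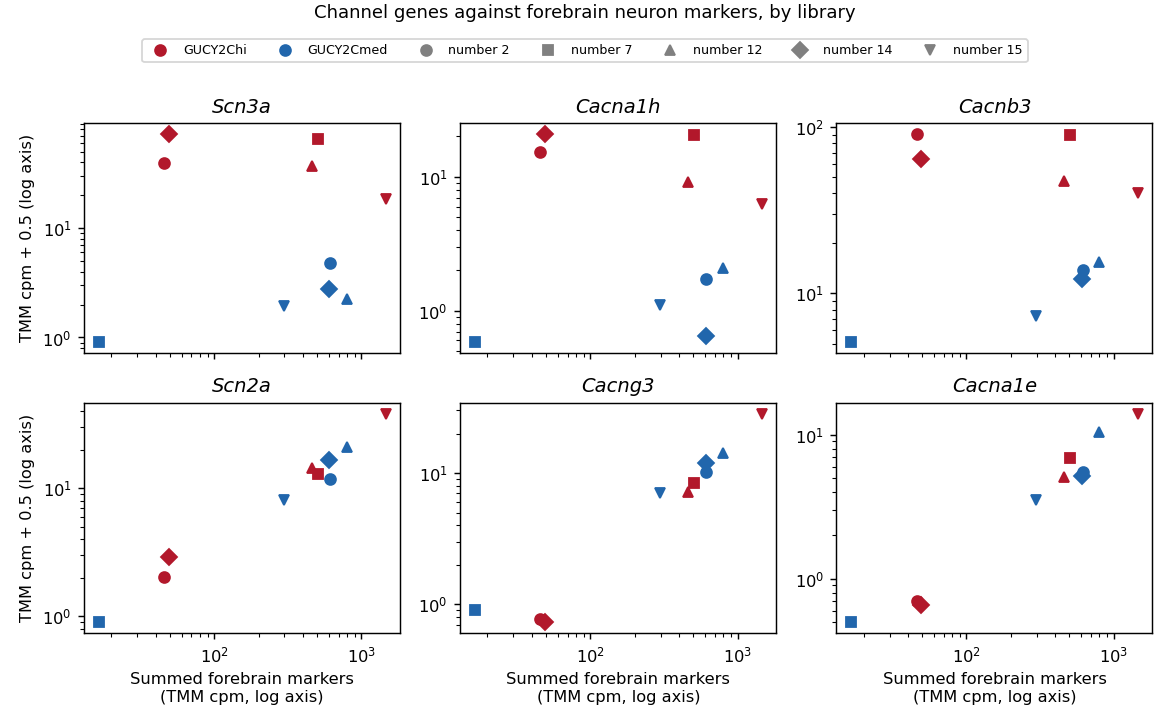
Level of 6 channel genes (vertical axes, TMM cpm + 0.5, log scale) against the summed level of 15 forebrain neuron markers (horizontal axes, TMM cpm, log scale) in the 10 libraries. Scn2a, Cacng3 and Cacna1e lay along 1 rising line whatever the group, while Scn3a, Cacna1h and Cacnb3 were separated by group at low and high sums alike.

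Read against the enteroendocrine sum, the spread between GUCY2Chi libraries narrowed for some genes past the threshold and widened for others. Scn3a was 0.269 to 0.461 cpm per 1000 cpm of enteroendocrine markers in the 5 GUCY2Chi libraries, a 1.72-fold span against 4.04-fold in cpm. For Cacna1h the spans were 1.68-fold and 3.56-fold, and for Cacna1a 2.25-fold and 4.72-fold. Cacnb3 did not narrow, at 2.48-fold and 2.29-fold, nor did Cacna2d1, at 3.18-fold and 2.48-fold. Scn9a hardly moved, at 3.47-fold and 3.88-fold, and Cacna1d widened to 6.15-fold from 2.16-fold. For Scn2a the span widened from 24.4-fold to 85.5-fold, and for Cacng3 from 121-fold to 480-fold. These are descriptions over 5 libraries, which differed in the enteroendocrine sum itself, lowest at 41156 cpm in library 15.

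Other marker lists were summed as well. Enteric neuron markers summed to 41.7 to 84.7 cpm in GUCY2Chi and 1.20 to 11.1 in GUCY2Cmed libraries, with 1 of 5 tested genes higher, and within that list Ret, a receptor tyrosine kinase, was 19.2 to 71.8 cpm in GUCY2Chi libraries. Hand2, a transcription factor of enteric neurons, was at 0 in all 10 libraries. Dorsal root ganglion markers summed to 11.4 to 32.8 and 1.01 to 3.51 cpm, with 1 of 2 tested genes higher and Mrgprd and Prdm12 at 0 in every library. Muscle markers summed to 21.5 to 71.4 and 8.61 to 13.1 cpm, with the 1 tested gene higher and Myh6 at 0. Oligodendrocyte markers summed to 83.9 to 131 and 49.6 to 87.7 cpm, with 1 of 5 tested genes higher. No tested gene passed for astrocyte markers (20.3 to 50.3 and 26.8 to 47.2 cpm), tuft cell markers (15.3 to 38.5 and 6.34 to 22.0) or immune cell markers (10.1 to 30.4 and 5.80 to 24.6). Their part in the channel results was not tested.

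The make-up of each subunit class was compared per length of gene, as a description with no test. Of the summed cpm per kilobase of the calcium pores, Cacna1a took 44.1% ± 13.8 (SD, n = 5) and Cacna1h 30.5% ± 10.5 in GUCY2Chi cells, and 24.7% ± 15.3 and 7.995% ± 4.82 in GUCY2Cmed cells, where Cacna1e took 17.3%. Of the calcium β level, Cacnb3 took 88.2% ± 9.41 and 70.7% ± 8.35, and of the α2δ level Cacna2d1 took 85.1% ± 5.30 and 59.96% ± 18.6. Of the sodium pores, Scn3a took 57.3% ± 22.5 and 18.4% ± 18.5, and Scn2a 16.2% ± 16.9 and 52.9% ± 5.76. The levels of Scn2a and Cacna1e moved with the forebrain marker sum in both groups. Whether their shares in GUCY2Cmed libraries come from epithelial cells was not tested. In GUCY2Chi library 15, the one with the highest forebrain sum, the Scn3a share was 21.0%, against up to 81.2% in the rest. Of the sodium β level, Scn3b took 18.3% ± 12.2 and 3.55% ± 2.28. GUCY2Cmed library 7 held few counts of the sodium pores, with 5 for Scn3a and 5 for Scn2a, so its shares are the least precise. Its Scn3a share was 50.5%, against 4.94% to 17.2% in the other GUCY2Cmed libraries.

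**Figure D4:**
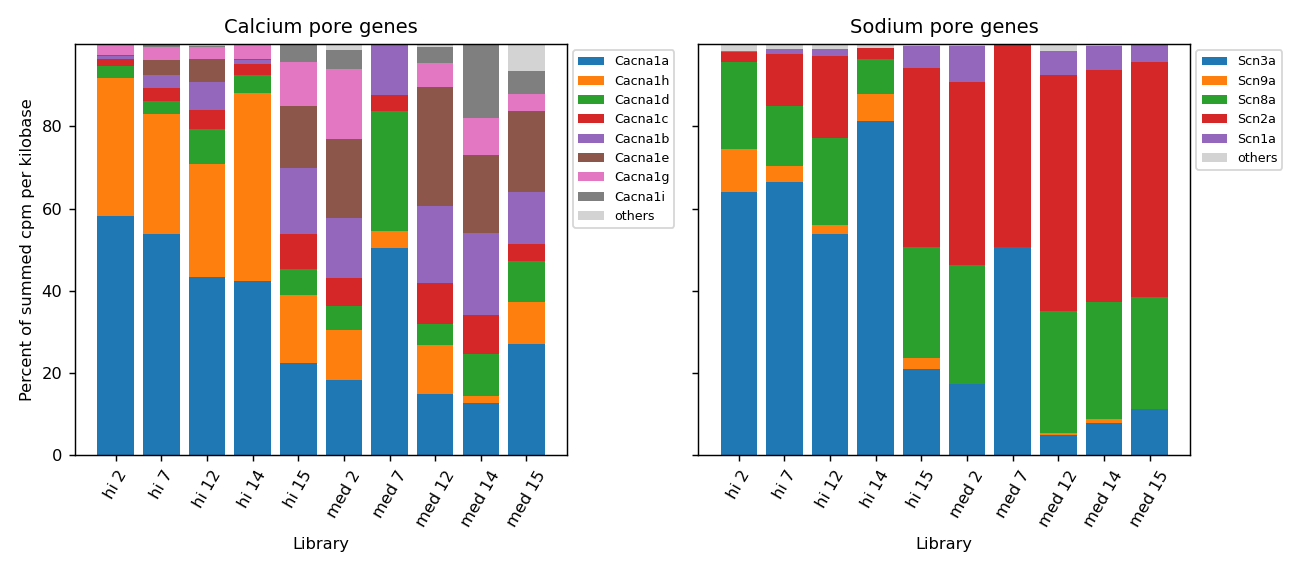
Share of each pore-forming gene in the summed cpm per kilobase (vertical axis, percent) of calcium pores (left) and sodium pores (right) in each library (horizontal axis), with stacked bars that sum to 100. Cacna1a and Cacna1h filled most of the calcium bars in 4 of the 5 GUCY2Chi libraries, and Scn2a took the largest part of the sodium bar in 4 of the 5 GUCY2Cmed libraries.

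Ordered by cpm per kilobase, channel genes among the highest in GUCY2Chi cells were Cacnb3 at 16.4 ± 5.86, Cacna2d1 at 3.80 ± 1.43 and Scn3a at 3.69 ± 1.78 (SD, n = 5). Below them were Cacng3 at 3.09 ± 4.09, Cacna1a at 2.11 ± 1.15, Scn3b at 1.99 ± 0.516 and Cacna1h at 1.42 ± 0.678. In GUCY2Cmed cells Cacng3 was at 3.01 ± 1.86 and Cacnb3 at 2.57 ± 1.10. The range of Cacnb3 over GUCY2Chi libraries, 9.86 to 22.6, lay above that of Cacna2d1, 2.43 to 6.05, and from Cacna2d1 down each gene named here overlapped the next in its range.

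Of the 13 genes that were not tested, Scn4a and Scn10a, the sodium pores of skeletal muscle and of pain-sensing neurons, were at 0 of 135060752 counts, which allows a level of up to 0.0222 cpm. The others held 2 to 32 counts over all libraries, the most for Cacng8. Among them were the L-type pores of retina (Cacna1f) and skeletal muscle (Cacna1s), Cacng1, Cacng5, Cacng6, Cacng7, Cacng8, Scn4b, Scn7a and Scn11a. Scn7a was the one to separate by group, from 0.0757 cpm up in GUCY2Chi and up to 0.0751 in GUCY2Cmed libraries, a gap smaller than 1 count, and in the fit without a filter its log2 fold change was 2.85 (SE 1.01, edgeR adjusted p = 0.0598). No gene of the 13 passed the threshold in that fit, which tested 38 of the 40.

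Genes for proteins that bind or regulate these channels were taken from lists of 36 genes, of which 33 were in the table and 28 tested. These lists were chosen with earlier results of these data known, so their counts are descriptions. With edgeR 6 were higher and 0 lower in GUCY2Chi cells, beside the 13.9% and 8.79% of all genes, and 1 negative fold change (Ank3) had an unadjusted p under 0.05. limma-voom and DESeq2 each called 1 lower, Ank3. The median log2 fold change was 0.70. Of the 6 higher with edgeR, Stac, Gem and Fgf14 passed the filter only through GUCY2Chi libraries. A higher level there was part of their entry, so these counts describe the genes tested. Rem2 and Gem encode small GTPases that damp calcium current at the β subunit. Rem2 reached 19.3 to 52.0 cpm in GUCY2Chi and 0.642 to 0.936 in GUCY2Cmed libraries, a log2 fold change of 5.46 (SE 0.34, edgeR adjusted p = 3.63e-06), and Gem had 4.89 (SE 0.80, edgeR adjusted p = 9.77e-04). Stac, an adaptor of L-type channels, was 1.64 to 9.10 cpm against at most 0.0720, at least 21.7-fold higher (edgeR adjusted p = 8.75e-05). Fgf14, an intracellular FGF homologous factor that binds sodium channel tails, averaged 20.3 ± 8.17 and 0.570 ± 0.453 cpm (SD, n = 5), which gave 5.12 on the log2 scale. Rimbp2, which tethers calcium channels at release sites, had 3.28 (SE 0.61, edgeR adjusted p = 0.00195), and with the replicate block the edgeR adjusted p was 0.0151. Nedd4, a ubiquitin ligase of sodium channels among other targets, averaged 118 ± 32.4 and 49.7 ± 5.67 cpm, a log2 fold change of 1.25. Ank3, the ankyrin that anchors sodium channels, was 12.1 to 39.7 cpm in GUCY2Chi and 37.6 to 66.2 in GUCY2Cmed libraries, with a log2 fold change of -1.11 and an edgeR adjusted p of 0.0144, or 0.00908 with the replicate block.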

How the data were processed

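RNA was measured in 10 libraries from 5 mice. The authors deposited raw counts for each gene, made by a sequencing provider with STAR alignments. The deposited FPKM divide counts by gene length and depth. The labels name mm9, but the positions of 40 of 40 channel genes overlap those of GRCm38.p6. The deposited comparison tables hold fold changes and p-values and were not used, nor were 10 per-sample columns of other tables. Per the labels' processing notes the study used limma 3.40.6 and edgeR 3.26.8.

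The rule for members used names and annotation alone, but it and the lists were chosen with earlier results of these data known. Genes over 0.5 cpm in at least 3 libraries were fitted with edgeR 4.0.16 (R 4.3.3) without a block, at an adjusted p under 0.01, with limma 3.58.1 and DESeq2 1.42.0 as alternatives, and the fit was tested on simulated data. The standard error is the fold change over the root of F. Members past the threshold or without overlap were described in full, partner genes past it were named. The biological coefficient of variation was 0.458. No libraries were duplicates, with a chi-square of at least 38.0 per degree of freedom. The same-number correlations of deviations from the group means were -0.11, -0.22, 0.27, -0.12 and 0.06 for 2, 7, 12, 14 and 15, and the pairing comes from the 5 mice each sorted into both groups. Exact permutation tests used log2(cpm + 0.5) and did not pair libraries of the same number. Exonic overlaps were read from the NCBIM37 annotation. Tables were written in Python 3.11.15 with numpy 2.4.6 and pandas 2.3.3, exact tests were run in scipy 1.17.1, and matplotlib 3.10.9 drew the figures. Results of a few genes are not reported here.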

Additional observations from a re-analysis of the deposited data

Results flagged for a closer look

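Of 52 sets of 5 libraries tested, 1 gene in 1 group each, 3 had a library far from the rest by Dixon's test, and chance flags about 1 in 20. GUCY2Cmed library 7 was the low one for Scn2b, at 0.963 cpm beside 3.77 to 5.71, and for Cacng3, at 0.401 beside 6.59 to 13.7. The same library had the lowest forebrain marker sum, 16.4 cpm. GUCY2Cmed library 15 was the high one for Cacna2d4, at 0.342 cpm, with 0 in the rest of its group.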

How the results depend on the processing

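Of the 25 alternatives, Scn3a, Cacna1a and Cacnb3 were past the threshold in 25, Cacna1h and Scn9a in 24, Cacna2d1 in 22 and Cacna1d in 19. The 7 channel genes called higher became 11 at an adjusted p under 0.05, beside 21.4% of all genes. They became 3 without the 5 libraries over 500 cpm of forebrain markers, beside 3.23% of all genes. That setting was chosen after seeing the data and leaves 5 libraries. Leaving out 1 library gave 5 to 9 channel genes, beside 10.6 to 16.5% of all genes. It gave 5 without GUCY2Cmed library 15 (beside 10.8%) and 9 without GUCY2Cmed library 7 (beside 13%). None was lower in any alternative. With the number as replicate block, edgeR gave 5 (beside 8.24%) and limma-voom 6 (beside 11.6%), which lost Cacna1d in both and Cacna2d1 in edgeR. Block and forebrain covariate together gave 8 (beside 12.2%). The block alone changed no other call among channel genes, but beside the forebrain covariate it lost Cacna1c (adjusted p = 0.0125) and Cacnb2 (0.0146). Among partner genes, 6 higher became 10 at 0.05 (beside 21.4% of all genes) and 2 without those 5 libraries (beside 3.23%). They were 6 to 7 with 1 library left out (beside 10.6 to 16.5%). With the replicate block in edgeR they were 5 (beside 8.24%), which lost Rimbp2. The 0 lower became 1, Ank3, with limma-voom, DESeq2, either replicate block, voomWithQualityWeights, the 0.05 threshold, the forebrain covariate with or without block, and without GUCY2Chi libraries 12 and 15, and 0 to 1 with 1 library left out.

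Signs turned for genes that were not past the threshold, as log2 fold changes. With voomWithQualityWeights they were -0.40 (Cacna1b), -1.69 (Cacna1e), -0.077 (Cacnb1), -0.62 (Cacnb4), -2.41 (Cacng3), -1.65 (Scn2b), -1.504 (Scn1a) and -1.05 (Scn2a), and without GUCY2Chi libraries 12 and 15 -0.35, -0.93, -0.0095, -0.73, -1.51, -1.26, -1.34 and -0.98 in the same order. With limma-voom they were -0.055 (Cacna1e), -0.96 (Cacng3), -0.69 (Scn2b) and -0.16 (Scn1a). With the replicate block in edgeR they were -0.69 (Cacna1e), -0.94 (Cacng3), -0.54 (Scn2b), -0.39 (Scn1a) and -0.089 (Scn2a), and with the block in limma-voom -0.012 (Cacna1e) and -0.070 (Cacng3). With the forebrain covariate they were -0.52 (Cacng3), -0.37 (Scn2b) and -0.029 (Scn1a), and with the block as well -0.19 (Cacna1e), -0.70 (Cacng3) and -0.51 (Scn2b). Scn2b was -0.44 without the 5 forebrain-high libraries, and Cacng2 was 0.10 on library size alone. With 1 library left out the ranges were -0.019 to 1.08 (Cacna1b), -0.62 to 0.76 (Cacna1e), -0.32 to 0.78 (Cacnb4), -1.02 to 0.17 (Cacng2), -1.10 to 0.45 (Cacng3), -0.93 to 0.55 (Scn1a), -0.52 to 0.72 (Scn2a) and -0.76 to 0.56 (Scn2b). The cause was not tested. With the deposited FPKM the GUCY2Chi shares printed for Cacna1a, Cacna1h, Cacnb3, Cacna2d1, Scn3a, Scn2a and Scn3b moved by less than 1 SD, but that of Scn3b in GUCY2Cmed cells went from 3.55% to 5.89%. Of shares not printed, those of Cacnb2, Cacna2d3 and Scn8a in GUCY2Chi cells went from 1.82% to 4.72%, 10.6% to 15.02% and 18.5% to 29.2%. The order by level moved too: in GUCY2Chi cells Cacna1a (9.69 FPKM) lay above Scn3a (9.21) and Cacng3 (6.76). In GUCY2Cmed cells Cacnb3 (5.74) lay above Cacng3 (5.11). Depth limited genes with few counts, such as Scn7a and Cacna2d4.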
